A study of Mus musculus with 14 samples.

Results

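UTX (KDM6A) removes methyl groups from lysine 27 of histone H3 and is a subunit of the MLL3 and MLL4 COMPASS-like complexes, which act at enhancers and promoters. Acetylation of the same residue (H3K27ac) marks active enhancers and promoters, and its trimethylation (H3K27me3), laid down by Polycomb repressive complex 2, marks silenced ones. The regions described here are the H3K27ac regions away from gene ends that carried UTX in blood progenitors. They number 850 of the 18820 merged H3K27ac regions that held an island, a stretch called as enriched, in every H3K27ac library. Each was narrower than 20000 bp, lay over 2 kb from either outermost end of every RefSeq protein-coding gene, met a UTX island in both UTX libraries and met no island of the IgG control. Levels of UTX, and the presence of H3K27ac in all 4 libraries, therefore chose the regions and are described without a test.

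Bone marrow of C57BL/6 mice was depleted of lineage-positive cells, and the Lin- progenitors left were UTX wild type (WT) or UTX knockout (KO). H3K27ac and H3K27me3 were each measured by ChIP-seq in 2 WT and 2 KO libraries, and UTX in 2 WT libraries. The IgG library was the control of a BCOR precipitation from WT cells. The age of the mice and how the deletion was driven are not given in the sources used here, and the labels do not say whether numbered libraries came from separate animals, so p-values measure the spread between libraries only. Reads in islands numbered 9330823 and 15256696 (WT) and 14763744 and 11121847 (KO) for H3K27ac, 2347442 to 2743508 for H3K27me3, 816567 and 1834418 for UTX and 154029 for IgG. Markers of progenitors held H3K27ac at their gene ends in every library (6 of 6 genes, summing to 1020 and 983 rpm, reads per 1000000 island reads of the library, in WT and 1010 and 859 in KO). Of 6 markers of mature blood cells, 3 to 4 held it (128 and 156 rpm in WT, 100 and 123 in KO), with Cd3e and Ly6g at 0, and 4 stromal and endothelial markers were all at 0. The deletion could not be checked: the deleted part of Kdm6a is not given in the sources used here, the islands meeting the gene held 1840 and 1562 H3K27ac reads in WT and 2674 and 2059 in KO, and no UTX library of KO cells was used.

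The word distal holds only in part for these regions. The filter used the outermost ends of each gene, and 353 of the 850 (41.5%) still met a RefSeq start window, from 250 bases before to 50 after an annotated start: 218 that of a protein-coding gene, all within a gene body, and 135 that of a long non-coding RNA alone. In 283 regions (33.3%) islands of both UTX libraries lay on such a window. The share meeting a start window was 8.89% among the 5309 equally distant regions with no UTX island in either library, and 82.3% among the 5262 UTX-bound regions at gene ends. The remaining 497 regions (58.5%) met no annotated start.

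Start windows under UTX were rich in CpG, the dinucleotide concentrated in CpG island promoters. The 371 windows met by both UTX libraries held a median of 22 CpG in 300 bases, against 7 over all 32851 RefSeq windows, and 68.2% held more than 15, against 33.0%. Short motifs of blood transcription factors were searched on both strands in the same windows. AGATAA, read by GATA factors, stood in 8.36% of the windows under UTX and in 11.2% of all windows. The ETS motif AGGAAGT stood in 8.36% and 9.35%, the RUNX motif TGTGGT in 11.3% and 16.8%, the AP-1 motif TGANTCA in 4.04% and 7.81%, and the C/EBP motif TTNNGCAA in 9.43% and 10.8%. Pooled over both kinds of gene, each share was lower under UTX. Among long non-coding RNA windows alone, AGGAAGT stood in 11.7% under UTX against 9.87% of all, and TTNNGCAA in 13.3% against 12%. A match describes letters and is no evidence of binding.

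The following 6 start windows (RefSeq, GRCm38.p6, 5′ to 3′ on the strand of the gene) are shown because both UTX libraries lay on them and the H3K27ac of their region fell (Tlcd4, Lmna, Adcy9, Pfkm) or rose (Nedd9, Gpam) in KO. They lie at chr3:121263118-121263417 (Tlcd4, minus strand), chr3:88503303-88503602 (Lmna, minus), chr16:4420449-4420748 (Adcy9, minus), chr15:98108306-98108605 (Pfkm, plus), chr13:41358952-41359251 (Nedd9, minus) and chr19:55099428-55099727 (Gpam, minus), each at a start inside the gene's outermost limits. Capitals mark CpG, except in Lmna, where they mark an AP-1 motif, and in Pfkm, where they mark a GATA motif.
Tlcd4: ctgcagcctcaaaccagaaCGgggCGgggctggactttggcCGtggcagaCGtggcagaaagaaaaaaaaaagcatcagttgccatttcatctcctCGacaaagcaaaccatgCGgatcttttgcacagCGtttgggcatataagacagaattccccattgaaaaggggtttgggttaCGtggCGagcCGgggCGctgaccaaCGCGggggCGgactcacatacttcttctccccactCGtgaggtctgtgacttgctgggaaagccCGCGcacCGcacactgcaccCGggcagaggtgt
Lmna: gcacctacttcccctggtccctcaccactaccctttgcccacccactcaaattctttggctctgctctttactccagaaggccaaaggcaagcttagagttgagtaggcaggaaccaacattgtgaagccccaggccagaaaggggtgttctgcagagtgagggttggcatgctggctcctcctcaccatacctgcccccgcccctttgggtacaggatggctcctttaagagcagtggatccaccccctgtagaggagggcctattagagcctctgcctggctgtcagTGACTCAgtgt
Adcy9: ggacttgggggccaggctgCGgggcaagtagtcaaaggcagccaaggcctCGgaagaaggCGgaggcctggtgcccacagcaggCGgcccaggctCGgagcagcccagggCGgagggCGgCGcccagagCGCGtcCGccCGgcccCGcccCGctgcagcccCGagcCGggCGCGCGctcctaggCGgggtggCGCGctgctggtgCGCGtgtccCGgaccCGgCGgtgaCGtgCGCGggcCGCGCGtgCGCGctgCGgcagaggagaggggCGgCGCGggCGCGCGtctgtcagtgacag
Pfkm: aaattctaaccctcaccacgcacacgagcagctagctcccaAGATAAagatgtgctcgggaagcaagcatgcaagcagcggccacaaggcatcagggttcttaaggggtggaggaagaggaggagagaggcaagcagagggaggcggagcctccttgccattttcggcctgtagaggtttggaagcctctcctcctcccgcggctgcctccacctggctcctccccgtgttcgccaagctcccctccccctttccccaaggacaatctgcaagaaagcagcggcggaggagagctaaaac
Nedd9: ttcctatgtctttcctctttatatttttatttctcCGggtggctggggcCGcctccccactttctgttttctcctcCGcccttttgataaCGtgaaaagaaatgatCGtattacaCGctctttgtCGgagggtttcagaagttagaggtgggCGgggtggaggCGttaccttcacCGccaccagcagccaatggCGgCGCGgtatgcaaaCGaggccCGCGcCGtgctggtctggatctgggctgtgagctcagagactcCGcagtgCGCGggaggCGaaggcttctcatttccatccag
Gpam: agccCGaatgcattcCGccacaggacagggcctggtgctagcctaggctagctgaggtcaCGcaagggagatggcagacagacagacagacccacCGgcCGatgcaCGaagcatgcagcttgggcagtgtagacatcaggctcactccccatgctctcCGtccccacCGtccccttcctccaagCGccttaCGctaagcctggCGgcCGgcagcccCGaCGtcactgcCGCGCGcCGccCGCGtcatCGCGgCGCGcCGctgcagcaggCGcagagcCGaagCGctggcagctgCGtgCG

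Both windows from regions that rose were rich in CpG (21 in Nedd9, 30 in Gpam), but so were Tlcd4 (19) and Adcy9 (42) among those that fell. Lmna, which encodes the nuclear lamina proteins lamin A and C, held 1 CpG, and Pfkm, the muscle isoform of phosphofructokinase, held 12. CpG content thus did not sort these 6 windows by the direction of the change.

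Of the 850 regions, 483 (56.8%) lay in the body of a protein-coding gene and 367 between genes. Their widths ran from 600 to 19800 bp with a median of 7600 bp. The nearest outermost gene end was 2012 to 704261 bp away, with a median of 14584 bp, and 58 regions lay over 100000 bp from any. Assigned to the gene that contained them or else to the nearest gene end, the regions fell to 787 genes, 54 of which had more than 1. The assigned gene can be far away, as at Foxo1 (277892 bp) and Jun (98179 bp), and need not be the one a region acts on. At the width limit, the regions nearest Ptbp3 and Cd69 and that in Armc9 were just inside at 19800 bp, and those at Scml4 and Cds1 (20000 bp) and Dennd6a (20200 bp) were just outside. At the distance limit, Ankrd24 (2012 bp), Ptpn21 (2013 bp) and Zfp292 (2018 bp) were just inside, and Axin2 (1973 bp), Smg6 (1977 bp) and Nemf (2000 bp) just outside. A further 208 regions failed on width alone.

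UTX reads were few at each region. Library 1 had 17 to 350 reads per region (median 49, or 60.0 rpm) in islands with a median length of 1400 bp. Library 2 had 27 to 754 (median 104, or 56.7 rpm) in islands with a median of 1800 bp. The UTX-bound gene ends had medians of 79.6 and 72.5 rpm. UTX islands covered a median of 19.1% and 27.03% of the acetylated region. Across the 850 regions, log2 rpm in the 2 UTX libraries had a Pearson r of 0.48 and a Spearman rho of 0.45, and mean UTX and WT H3K27ac had 0.57 and 0.55. These are descriptions over regions that share libraries and that were chosen for UTX in both. From the weakest to the strongest quartile by mean UTX, the share with an annotated start was 23.5%, 36.8%, 48.6% and 57.3%.

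**Figure D1:**
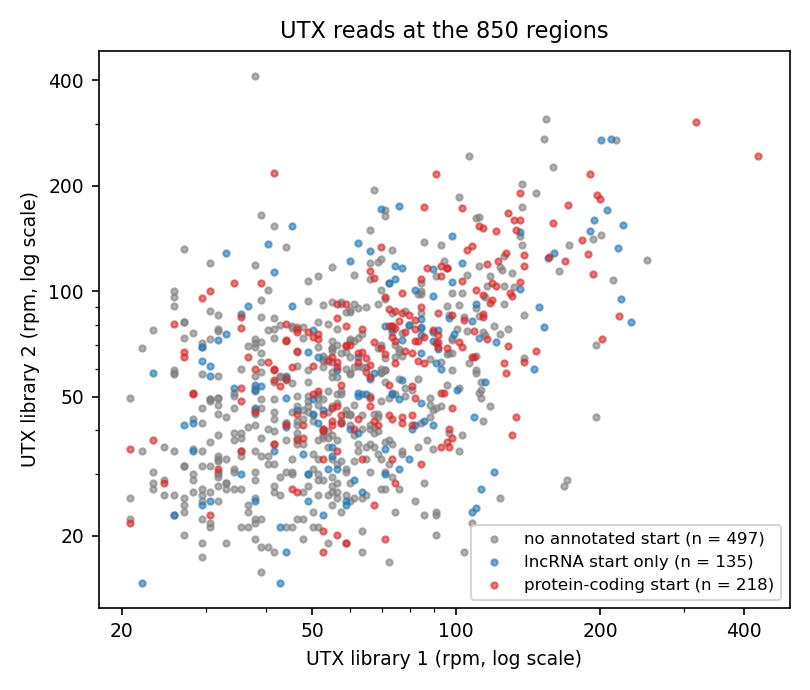
UTX level (rpm) in library 1 (x axis) and library 2 (y axis), both on log scales, for the 850 regions coloured by the kind of annotated start they met. The cloud is broad around its diagonal (Pearson r 0.48 on the log2 scale), and 1 region near Tagap stands alone at 38.0 and 411 rpm.

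The strongest mean UTX lay over an internal start of Phip, a chromatin reader with bromodomains (chr9:82963801-82978200), at 429 and 243 rpm. Ubtf, the ribosomal RNA transcription factor UBF (chr11:102307401-102321400), followed with 317 and 304 rpm. A region without any annotated start near Nr3c1, the glucocorticoid receptor (chr18:39472601-39492400), had 216 and 270 rpm. The other members of the top 10 were assigned to Cd69, an early activation antigen of lymphocytes, Abt1, Nfia, Tagap, Kcnrg, Ptch1, the Hedgehog receptor, and Jade1. The libraries differed most at Tagap (38.0 against 411 rpm). In 8 of the 10, H3K27ac did not pass the test between genotypes. At Phip it was 184 and 182 CPM (reads per 1000000 after TMM scaling) in WT and 161 and 173 in KO, which did not overlap (log2 fold change −0.14 ± 0.08 SE, adjusted p = 0.255, edgeR quasi-likelihood test, as for every H3K27ac p below). The exceptions were Nfia, a nuclear factor I gene (140 and 155 CPM in WT, 34.3 and 44.8 in KO, −1.90 ± 0.14, adjusted p = 0.000402), and Ptch1 (114 and 106 CPM in WT, 59.7 and 64.5 in KO, −0.83 ± 0.10, adjusted p = 0.00174). Both fell, and KO libraries were below WT libraries at both.

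The comparison of KO with WT asked how acetylation behaved without UTX at the places where UTX had been. As a sum, the 850 regions held a steady share of H3K27ac island reads: 4.48% and 4.17% in WT, 4.28% and 4.31% in KO, ranges that overlap. Single regions moved both ways. At an adjusted p under 0.05, H3K27ac was lower in KO at 171 regions (20.1%), against 14% of all 18820 regions tested. It was higher at 86 (10.1%), against a background of 12%. The order depends on which regions form the background: in the fit on regions with islands in at least 2 libraries, 15.8% of the 850 were lower, against 18.4% of all. The other 593 did not pass. Of the 171 falls, 77 passed 2-fold, and 17 of the 86 rises did. Over all regions tested, 1069 of 2631 falls and 840 of 2258 rises did. The median log2 fold change of the 850 was −0.05, against 0.00 over all regions. The cells were measured in bulk, so fewer cells carrying the mark and less of it per cell cannot be told apart.

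Scaling and the UTX libraries bear on these counts. With library totals in place of TMM factors, the split of the calls moved from 86 higher and 171 lower (33.5% higher) to 129 and 136 (48.7% higher). The median of all regions moved by 0.115 to the higher side, and the background became 17.4% higher and 10.99% lower. The lower share also depended on UTX library 2. Among 1645 regions chosen by UTX library 1 alone, 14.2% were lower and 12.3% higher, close to the background. Among 1967 chosen by library 2 alone, 21.3% were lower and 9.15% higher. UTX rpm in library 2 exceeded that in library 1 at 95 of the 171 lower regions (55.6%), 26 of the 86 higher (30.2%) and 231 of the 593 that did not pass (39.0%).

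Equally distant regions without UTX gave other shares: 13.4% higher and 7.01% lower of 5309, with a median log2 fold change of 0.13. These regions had less H3K27ac (median 15.9 CPM against 46.9), so the shares were also taken within quartiles of the level of the 850. From the lowest to the highest quartile, 13.6%, 24.1%, 23.6% and 19.2% of the UTX-bound regions were lower, against 5.58%, 12.2%, 10.97% and 15.9% of those without UTX. The higher shares were 8.92%, 8.49%, 10.4% and 12.7% against 11.1%, 19.5%, 26.6% and 36.4%. The UTX-bound regions had the larger lower share and the smaller higher share in each quartile, with 44 regions without UTX in the top one. No test of this difference was run. The 850 were chosen by UTX in WT cells alone. Across them, log2 WT H3K27ac and the H3K27ac log2 fold change had a Pearson r of −0.25. How far choosing by a WT signal contributed to these shares was not tested. The 5262 UTX-bound gene ends had 8.06% higher and 15.3% lower. By the same quartiles, 8.12%, 12.1%, 15.8% and 19.8% of the gene ends were lower. Over all tested regions it was 6.86%, 14.7%, 18.7% and 24.7%, so in the top quartile the UTX-bound regions (19.2%) lay under both.

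**Figure D2:**
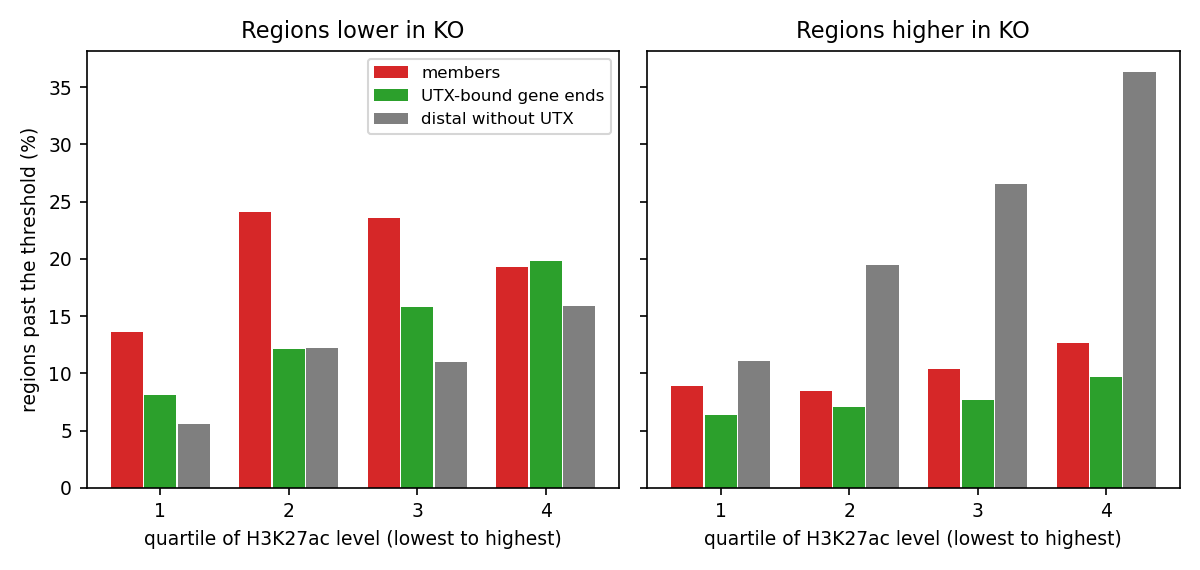
Share of regions (%) past the threshold as lower (left) or higher (right) in KO, by quartile of the mean H3K27ac level of the 850 regions, which are the red bars named members. Lower shares of the red bars exceed those of distal regions without UTX (grey) in all 4 quartiles and those of UTX-bound gene ends (green) in 3, and in the top quartile they are 19.2% against 19.8% for gene ends.

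The shares past the threshold were close with and without an annotated start, but changes beyond 2-fold were fewer with one. Of 353 with a start, 34 were higher and 65 lower (9.63% and 18.4%), and of 497 without one, 52 and 106 (10.5% and 21.3%). Gene bodies had 11.2% higher and 21.3% lower, and regions between genes 8.72% and 18.5%. Falls beyond 2-fold numbered 53 of 497 without a start and 24 of 353 with one, and rises beyond 2-fold 15 of 497 and 2 of 353. Over all 18820 regions, 1069 falls and 840 rises were beyond 2-fold. These differences were not tested. By quartile of mean UTX, 13.1%, 16.5%, 25.9% and 24.9% were lower and 9.86%, 10.4%, 13.2% and 7.04% higher, while median WT H3K27ac rose alongside from 26.8 to 82.6 CPM.

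**Figure D3:**
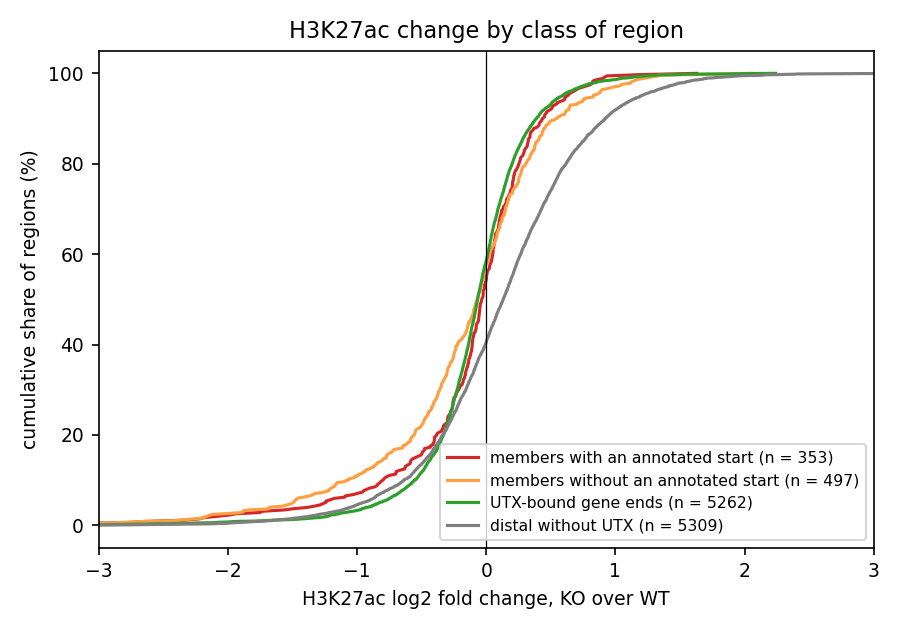
Cumulative share of regions (%) by H3K27ac log2 fold change of KO over WT for 4 classes of region. The curves of the UTX-bound classes cross 0 near one another, and that of distal regions without UTX lies to the right, with a median of 0.13.

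The largest fall lay over the internal start of Tlcd4 printed above (chr3:121256601-121268200), a gene for a membrane protein with a TLC domain. Its H3K27ac was 123 and 144 CPM in WT and 6.91 and 13.9 CPM in KO (log2 fold change −3.70 ± 0.28 SE, adjusted p = 0.000409). Both KO libraries were far below both WT libraries, and the islands shrank from 10800 and 11600 bp to 2600 and 3800 bp. UTX there was 41.6 and 218 rpm in the 2 libraries. Inside Gse1, which encodes a protein found with the CoREST repressor complex (chr8:120286801-120302200), H3K27ac was 97.5 and 97.8 CPM in WT and 10.5 and 12.4 in KO (−3.10 ± 0.14, adjusted p = 0.000171). Here the region at the gene's own end went the other way, with a log2 fold change of 0.62 (adjusted p = 0.0169). Zbtb46, a transcription factor of classical dendritic cells (chr2:181458001-181466000), had 99.9 and 91.5 CPM in WT and 11.1 and 13.0 in KO (−2.99 ± 0.14, adjusted p = 0.000171). Mllt3 (AF9), a chromatin reader that maintains blood stem cells (chr4:87799401-87810800), had 67.8 and 87.1 CPM in WT and 11.7 and 10.9 in KO (−2.78 ± 0.17, adjusted p = 0.00025). Groups did not overlap at any of these regions, which was a condition for naming them and is no further result.

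Rgs6, a regulator of G protein signalling (chr12:83068601-83078400), had 52.9 and 76.4 CPM in WT and 6.76 and 11.3 in KO, a log2 fold change of −2.86. The other 7 of the 12 largest falls ran from −2.70 to −2.22 and lay near Mfhas1, within Clcn3, near B4galnt4, within Gna14, and near Gm38457, Aqp4 and Rabif. All 12 remained past the threshold when any 1 of the 4 H3K27ac libraries was left out. Of the 12, 7 lay in gene bodies, 5 met an annotated start and 3 met H3K27me3 in at least 1 library. In each of the 12, UTX rpm was higher in library 2 than in library 1, as at Mllt3 (30.6 and 100 rpm) and Gna14 (24.5 and 36.0 rpm). The part of that library difference in the falls was not tested.

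The starts among the falls include the remaining windows printed above. The Lmna region (chr3:88499801-88506000) had 56.3 and 55.6 CPM in WT and 11.7 and 14.7 in KO (−2.09 ± 0.17, adjusted p = 0.000538), with islands of about the same length (4400 and 4800 bp in WT, 4200 and 5000 bp in KO). Adcy9, an adenylyl cyclase (chr16:4406801-4422600), had 78.1 and 79.3 CPM in WT and 25.4 and 15.3 in KO (−1.94 ± 0.22, adjusted p = 0.00143). Its islands shortened from 14000 and 13800 bp to 5600 and 2000 bp, and per covered length its log2 fold change was 0.17. Pfkm (chr15:98106201-98113400) had 25.5 and 27.7 CPM in WT and 5.70 and 10.2 in KO (−1.75 ± 0.31, adjusted p = 0.00686). The Adcy9 and Lmna calls held without any 1 library, and the Pfkm call in 3 of 4 such fits.

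The largest rise lay inside Fut8, the enzyme of core fucosylation (chr12:77288401-77308000). H3K27ac was 9.76 and 9.64 CPM in WT and 48.9 and 31.7 in KO (2.06 ± 0.25, adjusted p = 0.00183). Its islands lengthened from 3400 and 2600 bp to 18800 and 10400 bp, and per covered length the log2 fold change was −0.10. Nedd9, a scaffold protein of integrin signalling whose internal start is printed above (chr13:41351401-41364000), had 14.7 and 16.0 CPM in WT and 42.0 and 53.5 in KO (1.63 ± 0.19, adjusted p = 0.00144). It widened likewise, from 2000 and 2200 bp to 10000 and 11000 bp. Cbx8, a Polycomb reader of H3K27me3, had a nearby region (chr11:119055401-119059000) at 14.4 and 12.1 CPM in WT and 32.0 and 34.6 in KO (1.34 ± 0.19, adjusted p = 0.00349).

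Slc7a11, the cystine transporter (chr3:50434201-50447600), had 28.0 and 29.2 CPM in WT and 65.2 and 65.3 in KO, a log2 fold change of 1.19. Gpam, a mitochondrial acyltransferase of lipid synthesis (chr19:55089201-55100600), had 49.1 and 44.9 CPM in WT and 75.6 and 104 in KO (0.94 ± 0.17, adjusted p = 0.00736). KO libraries lay above WT libraries at both. Gpam is named for its printed start and is not among the 12 largest rises. Others of the 12 largest rises lay within Casz1 (1.33), near Foxo1 (1.28), within Lpgat1 (1.23) and Pxylp1 (1.16), near Svil (1.15) and within Ric8b (1.13), with 1 more at the antibody heavy chain locus. Of the 12, 8 remained past the threshold with any 1 library left out. Among the exceptions, Foxo1 and Ric8b did in 1 of 4 such fits and Svil in 2.

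**Figure D4:**
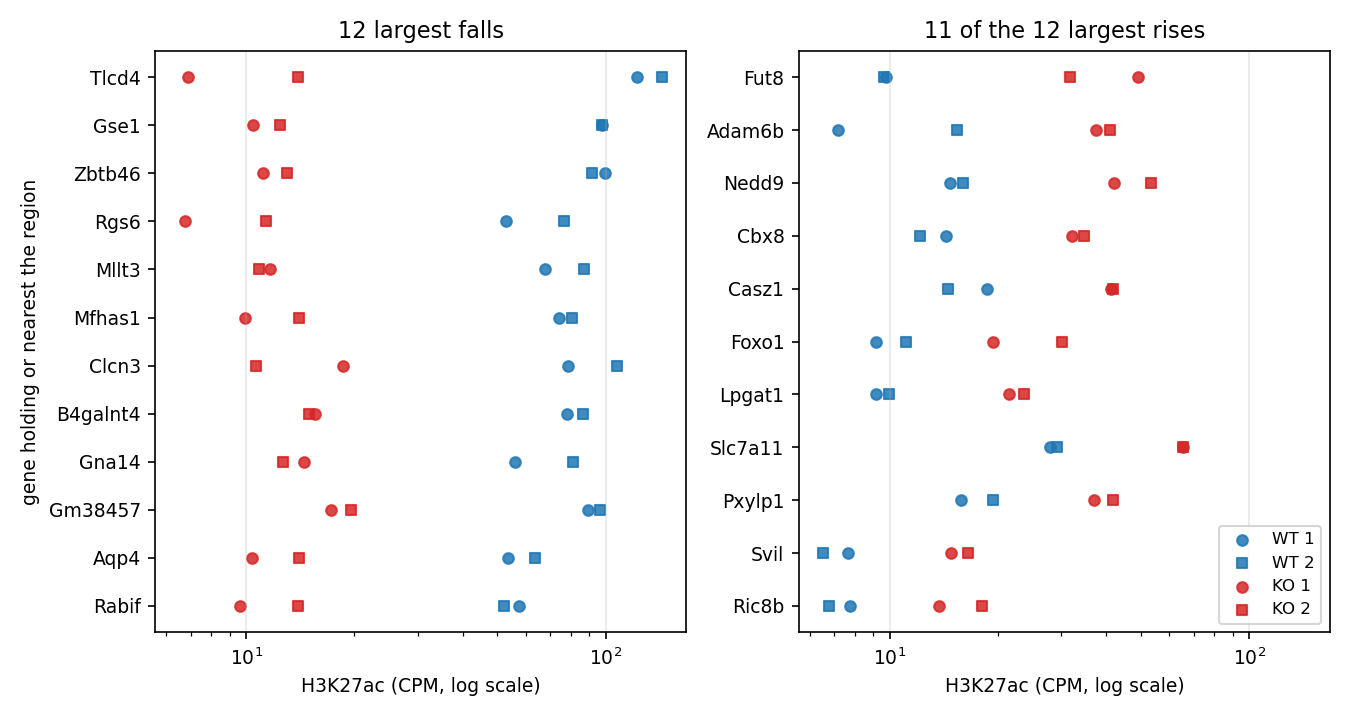
H3K27ac level (CPM, log scale) in each WT (blue) and KO (red) library at the 12 regions with the largest falls (left) and at 11 of the 12 with the largest rises (right), named by gene. The regions were picked for having no overlap between WT and KO, and the widest gap is at Tlcd4 (123 and 144 CPM against 6.91 and 13.9).

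That remaining rise and 2 more, singled out after their values were seen, belong to the antibody heavy chain locus, which B cells rearrange. The region over Ighm and Ighd, the constant segments of IgM and IgD (chr12:113413201-113424400; nearest protein-coding gene Adam6b), had 7.18 and 15.4 CPM in WT and 37.4 and 41.0 in KO (1.77 ± 0.33, adjusted p = 0.00894). The neighbouring region over the joining segments Ighj1 to Ighj4 (chr12:113425201-113432000) had 85.4 and 88.6 CPM in WT and 164 and 169 in KO (0.93 ± 0.08, adjusted p = 0.000627). A further region near Tmem121 (chr12:113219801-113232000) had 14.5 and 25.4 CPM in WT and 40.2 and 47.3 in KO (1.12 ± 0.27, adjusted p = 0.0229), a call kept in 2 of the 4 fits without 1 library. KO exceeded WT at all 3, alongside the B cell marker Ms4a1 (0 and 5.05 rpm in WT, 11.04 and 12.5 in KO). The part of B lineage cells in these rises was not tested.

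The count of a region grows with the island length called as well as with the density of reads. When reads were divided by the length of the islands in each library (limma on log2 values), 10 of the 850 were lower and 1 was higher, against 0.51% and 0.266% of all regions. Of the 171 lower regions, 139 kept their sign on this scale, and so did 69 of the 86 higher. The 10 were those at Plpp7, Zbtb46, Lmna, Tlcd4, Adamtsl5, Clint1, Susd6, Rgs6, Agpat4 and Aqp4, and the 1 was that at Ccdc54. At Lmna the change per covered length (−1.97, adjusted p = 0.018, limma) was close to that of the whole region.

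Leaving out 1 H3K27ac library at a time left 11.7% to 14.7% of the 850 lower, beside 7.27% to 10.1% of all regions, and 4.71% to 6.82% higher, beside 6.52% to 7.40%. In all 4 such fits, 84 of the 171 lower and 26 of the 86 higher regions stayed past the threshold. Each such fit leaves 1 library in 1 genotype, and the shares past the threshold were smaller over all regions too. How far a single library or the smaller number of libraries accounts for the lost calls was not tested.

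The genes with most regions were Tex14 (4) and Bcor, Dnmt3a, Ly86, Nol4l, Pced1b, Rere and Ssh2 (3 each). None of the 4 in Tex14, a gene of germ cell bridges, passed the test. At Nol4l, both regions outside the gene body fell. The one at chr2:153555801-153564600 had 38.9 and 41.9 CPM in WT and 11.5 and 10.5 in KO (−1.88 ± 0.18), and the one at chr2:153540001-153552400 had 59.5 and 60.0 in WT and 21.8 and 26.1 in KO (−1.32 ± 0.15). The third, at a start inside Nol4l, had 8.35 and 4.78 CPM in WT and 8.12 and 6.13 in KO, which overlap. Bcor, a corepressor of a variant Polycomb complex, had 1 region outside its body that fell (146 and 137 CPM in WT, 66.7 and 79.4 in KO, −0.96 ± 0.11) and 2 in its body that did not pass (0.09 and 0.43). Ly86 had 1 that rose (0.55) and Ssh2 1 that rose (0.80, lost whenever a library was left out). Pced1b had 1 that fell (−0.82), and Dnmt3a, a DNA methyltransferase, and Rere had none that passed. Neighbouring regions of 1 gene thus did not always move together.

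The region at the outermost end of the assigned gene passed in the same direction more often than in the opposite one, though most ends did neither or were opposite. Of the 171 lower regions, 125 had a tested gene end, of which 53 were lower (42.4%) and 10 higher (8%). Of the 86 higher, 60 had one, with 20 higher (33.3%) and 6 lower. Of the 593 that did not pass, 422 had one, with 69 lower (16.4%) and 46 higher (10.9%). The gene ends come from the same libraries, and several regions can share a gene, so no test was run. Named examples of the same direction are Clcn3 (end −1.13), Mfhas1 (−1.62), Nedd9 (0.88) and Foxo1 (0.99). The ends at Gse1 (0.62) and Svil (−0.68) passed in the direction opposite to their regions. At Zbtb46 and Mllt3 the ends had values of 0.09 and −0.13 and did not pass.

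In 12 lists of blood lineage, signalling and chromatin genes, 31 of 356 genes had a UTX-bound region, and of these 35 regions 5 fell and 3 rose (14.3% and 8.57%, near the background). In the erythroid list, Sptb, the red cell spectrin (19.996 and 22.465 CPM in WT, 7.19 and 8.35 in KO, −1.45 ± 0.23, adjusted p = 0.00475), was the only gene of 42 with such a region, and it fell. In the stem cell list of 30 genes, Mllt3 fell, and Cd34 (0.19) and Ly6a (0.46) did not pass. In the megakaryocyte list of 25, Selp and Thbs1 did not pass (0.09 and 0.10).

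In the granulocyte and monocyte list of 45 genes, 3 regions at Cd33 and Csf2ra did not pass (−0.42 to 0.24). Of 3 regions in the B cell list of 31 genes, that near Foxo1 rose (9.17 and 11.1 CPM in WT, 19.4 and 30.1 in KO, adjusted p = 0.0165), and those in Bach2 and Tcf4 did not pass. In the T and NK cell list of 30, an internal start of Satb1, a chromatin organizer of lymphocytes, rose (40.6 and 47.1 CPM in WT, 82.4 and 73.0 in KO, 0.82 ± 0.13, adjusted p = 0.00449). The list of dendritic and mast cell genes had Zbtb46, which fell, and Tcf4. In the ETS family list of 24, 1 of 2 regions in Elf2 rose (22.6 and 32.0 CPM in WT, 46.9 and 54.6 in KO, 0.88 ± 0.20, adjusted p = 0.0178, kept in 2 of 4 fits without 1 library), and Etv3 and Elk3 did not pass.

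Of 3 regions in the list of AP-1, NF-κB and interferon genes, those near Jun (138 and 151 CPM in WT, 99.9 and 97.6 in KO, −0.55 ± 0.09, adjusted p = 0.00504) and Nfkb1 (41.1 and 37.4 in WT, 22.1 and 24.1 in KO, −0.76 ± 0.16, adjusted p = 0.0148) fell. The Nfkb1 call was kept in 1 of the 4 fits without 1 library, and Fos (0.28) did not pass. None of 10 regions in the leukaemia and signalling list (8 of 33 genes, among them Tet2, Bcl2 and Idh1) passed. In the list of COMPASS, PRC2 and coactivator genes, Hdac4, Chd7 and Dpy30 did not pass in the reported fit, but Chd7 (0.37, adjusted p = 0.0504) lay at the threshold and passed in DESeq2 (adjusted p = 0.0485) and with library totals (0.021, edgeR). Hdac4 (0.34, adjusted p = 0.073) passed with library totals (adjusted p = 0.0311, edgeR). In the stromal and endothelial list, the region near Kdr did not pass (−0.32). Neither Kdm6a nor Kdm6b, the related demethylase, nor the Y-linked Uty held one of the 850 regions.

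Some regions lie over microRNA genes: 11 hairpins stood in 5 of them. The miR-17 to miR-92a cluster, which supports the survival of B cell progenitors, lay in the region at its host gene Mir17hg (chr14:115039201-115046200). Its mature microRNAs (RefSeq, GRCm38.p6) are shown with the seed, bases 2 to 8, in capitals. They fall into seed groups: miR-17 with miR-20a, miR-18a, miR-19a with miR-19b, and miR-92a. The let-7 pair, which shares its seed and opposes proliferation, comes from a second region (chr13:48536801-48554600).
miR-17-5p: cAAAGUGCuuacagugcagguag
miR-20a-5p: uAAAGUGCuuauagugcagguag
miR-18a-5p: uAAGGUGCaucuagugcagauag
miR-19a-3p: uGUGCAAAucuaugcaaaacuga
miR-19b-3p: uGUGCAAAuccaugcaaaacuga
miR-92a-3p: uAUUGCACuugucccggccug
let-7a-5p: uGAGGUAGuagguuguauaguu
let-7f-5p: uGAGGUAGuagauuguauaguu

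H3K27ac over the miR-17 cluster was 170 and 137 CPM in WT and 117 and 117 in KO, with KO below WT (−0.39 ± 0.11, adjusted p = 0.0464). The call was kept in 1 of the 4 fits without 1 library. UTX there was strong, at 195 and 159 rpm, but no UTX island lay on the 6 hairpins themselves. The let-7 region did not pass (−0.11, adjusted p = 0.353), and UTX library 2 alone had an island on its hairpins. Regions with Mir760 (0.21), Mir6516 (−0.26) and Mir6367 (−0.09) did not pass either.

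H3K27me3, the mark that UTX can remove, was present at few of the regions, and no more of them carried it in KO. Islands met 65 and 83 of the 850 in the WT libraries (7.65% and 9.76%) and 60 and 71 in KO (7.06% and 8.35%), ranges that overlap. Over all 18820 regions the shares were 7.17% and 8.70% in WT and 5.72% and 6.79% in KO, and over distal regions without UTX 2.96% and 3.39% in WT and 2.49% and 2.60% in KO. In all, 736 regions met none in any library, 114 met one in at least 1 library and 36 in all 4. There were 9 with the mark in both WT and no KO library, and 4 the other way round. Of the 36, 11 (30.6%) had lower and 2 (5.56%) higher H3K27ac in KO, and 23 did not pass. The lower and higher shares were 20.1% and 10.1% of the 850, and 14% and 12% of all 18820 regions.

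Levels of H3K27me3 could be tested at 52 of the 6771 regions with this mark in all 4 libraries, which met 51 of the UTX-bound regions. None passed an adjusted p of 0.05 (edgeR; smallest adjusted p = 0.295), against a background of 0 higher and 0.0148% lower. At an unadjusted p under 0.05, 5 were higher and 1 lower (11.5%), against 7.64% of all tested. Their median log2 fold change was 0.18, with 34 of 52 above 0, against 0.00 over all. DESeq2 called 1 of the 52, and so did edgeR with library totals.

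That 1 region in both cases was the one over Zbtb46. Its H3K27me3 was 152 and 186 CPM in WT and 331 and 423 in KO, with KO above WT (1.16 ± 0.20, adjusted p = 0.295 in edgeR and 0.00374 in DESeq2). This is the same place where H3K27ac dropped from 99.9 and 91.5 to 11.1 and 13.0 CPM. At Tlcd4, H3K27me3 was 98.5 and 139 CPM in WT and 212 and 161 in KO (0.65 ± 0.27). Neither passed for H3K27me3 in edgeR with TMM factors, though KO was above WT at both. With library totals, Zbtb46 passed (adjusted p = 0.0138, edgeR).

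Other regions with H3K27me3 in all 4 libraries had values that overlapped between genotypes. The mark at Nfia was 91.1 and 165 CPM in WT and 164 and 180 in KO. At Ptch1 it was 195 and 259 CPM in WT and 186 and 207 in KO. Near Cbx8, whose H3K27ac rose, H3K27me3 was 764 and 1037 CPM in WT and 744 and 858 in KO. These 3 were picked after their values were seen, from the 36.

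**Figure D5:**
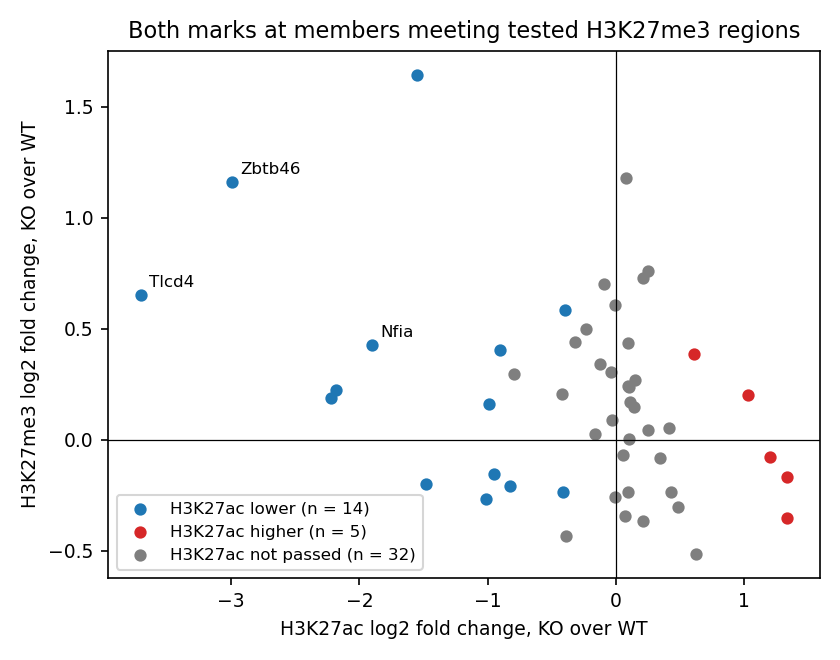
H3K27ac log2 fold change (x axis) and H3K27me3 log2 fold change (y axis), both KO over WT, at the 51 UTX-bound regions that met a tested H3K27me3 region, coloured by the H3K27ac call. Zbtb46, Tlcd4 and Nfia stand at the upper left, with H3K27me3 values of 1.16, 0.65 and 0.42, none past the threshold in edgeR with TMM factors.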

How the data were processed

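ChIP-seq islands of 11 libraries were used (4 H3K27ac, 4 H3K27me3, 2 UTX and 1 IgG), and 3 further samples, 2 inputs and 1 IgG, were not used here. Per the submitters' processing notes, islands were called with SICER on mm10. Its settings and the aligner are not given in the sources used here. The deposited files give the counts, whole numbers of reads per island, and these were summed over merged overlapping islands (at least 1 bp). A library's reads outside its islands were not seen, so a region's count moves with the length called. Chromosomes 1 to 19, X and Y were used. Replicates of 1 genotype differed by more than sampling noise.

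KO was compared with WT over all regions with an island in all 4 libraries by edgeR 4.0.16 (quasi-likelihood test, TMM, Benjamini-Hochberg 0.05, R 4.3.3). Values in CPM use the TMM sizes, and UTX rpm use the reads in islands. DESeq2 1.42.0, limma 3.58.1 on log2 reads per covered length, library totals, a replicate block and leaving out libraries were alternatives. The fit was tested on simulated data. Genes, starts and sequences came from RefSeq GRCm38.p6. With no genome used, sequences outside start windows were not read. Pandas 2.3.3 did the joins.

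Named were up to 12 regions per direction with the largest change past the threshold and no overlap, regions at list genes, the 10 strongest in UTX, the genes with most regions, and regions with H3K27me3 in most libraries. Members, lists and tests were chosen with earlier results of these data known. Some regions and markers that these rules pick are not reported here.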

Additional observations from a re-analysis of the deposited data

How the results depend on the processing

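The main counts were 20.1% of the 850 regions lower and 10.1% higher in KO. Per covered length they were 1.18% and 0.118%, beside 0.51% and 0.266% of all regions. That fit also used limma in place of edgeR and library totals in place of TMM factors. Fitted on regions with islands in at least 2 libraries, 6.59% were higher and 15.8% lower, and all regions then had 11.6% higher and 18.4% lower, so the lower share was under its background. Leaving out 1 library at a time, UTX libraries included, gave 11.7% to 21.3% lower and 4.71% to 12.3% higher. DESeq2 gave 18.2% lower and 9.41% higher. With the replicate number as a block, 20.9% were lower and 11.5% higher, and no H3K27me3 region passed. Deviations of same-numbered libraries from the mean of their genotype had r = 0.05 for H3K27ac and −0.05 for H3K27me3, over regions. So few libraries cannot show whether the numbers are a pairing, and the labels do not say. Among regions without an annotated start, a setting added after seeing the data, 21.3% were lower and 10.5% higher. The median log2 fold change turned positive with library totals (0.063, all regions 0.115) and per covered length (0.0093, all regions 0.043). Per covered length, Fut8 (−0.10), Nedd9 (−0.58), Foxo1 (−0.41), Lpgat1 (−0.17), Ric8b (−0.11), Ssh2 (−0.10), Gpam (−0.40), Adcy9 (0.17) and Zfp292 (0.31) changed direction. Of the regions examined singly, 16 that did not pass did so in at least 1 alternative, 11 of them with library totals, among them regions at Bcor, Dnmt3a, Rere, Fos, Hdac4 and Chd7. DESeq2 and library totals each called 1 of the 52 H3K27me3 regions, against 0. The causes of these shifts were not tested. UTX depth, with a median of 49 reads per region in library 1, limits how finely regions can be ranked.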
